A study of Xenopus laevis with 3 samples.

Results

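The levels of 8 sequences of miRNAs known from blood cells and endothelium were followed in dorsal tissue of *Xenopus laevis* embryos at stage 10.5, the early gastrula. They are all the listed sequences with a *X. laevis* or *X. tropicalis* name of miR-126, miR-142, miR-144, miR-150, miR-223 or miR-451, which makes 8 of 1985 listed sequences and 8 of the 166 *Xenopus*-named sequences with at least 1 read. There were 3 small RNA libraries, each of 30 isolated dorsal sides pooled over 3 experiments. The first was of uninjected embryos. For the second, *lhx1* transcripts were targeted with 400 pg of the antisense oligonucleotide *Lhx1-AS*, and for the last, translation of *fry* was blocked with 20 ng of the morpholino *Fry-MO*. Each agent went into both dorsal cells at the 4-cell stage, and injected embryos were picked by red fluorescence on their dorsal side. The uninjected embryos carried neither oligonucleotide nor red fluorescence, so depletion, injection and selection cannot be told apart. With 1 library a condition there is no spread between replicates and no test, and every interval below is a 95% interval for counting error only.

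In vertebrates miR-142 is made throughout the blood lineage, miR-223 in neutrophils and macrophages, and miR-150 in mature lymphocytes. MiR-451 and miR-144 come from 1 cluster that is switched on in red cell precursors by GATA1, and miR-451 is unusual because Argonaute2 and not Dicer cuts it out of its hairpin. MiR-126 lies within an intron of *egfl7*, a gene of endothelial cells, and supports the growth of vessels. Its hairpin gives a product from each arm, called 5p and 3p. At the gastrula stage blood and vessels have not yet formed.

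The sequences as the authors listed them are shown because they define what was counted, with the seed, bases 2 to 8 from the 5′ end, in capitals.
xla-miR-142_L+2: cCCATAAAgtagaaagcactac
xla-miR-223_R-2: tGTCAGTTtgtcaaatacc
xtr-miR-150_R-2: tCTCCCAAcccttgtaccag
xtr-mir-150-p3: cTGGTACAgaggatggctgaaa
xtr-miR-451_R+1: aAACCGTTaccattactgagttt
xtr-miR-144_R-1: tACAGTATagatgatgtact
xtr-miR-126-5p: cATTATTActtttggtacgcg
xtr-miR-126-3p_R+1: tCGTACCGtgagtaataatgca

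The 8 sequences were 19 to 23 bases long, and no seed was shared between any of them. Among all listed sequences with reads, a seed of theirs returned only in sequences of the same number that carry the name of another species, which was the case for miR-142, miR-126-3p and miR-150. The start of a name gives the species of the reference entry (xla for *X. laevis*, xtr for *X. tropicalis*), and its ending was read as bases more or fewer than that entry at the 5′ end (L) or the 3′ end (R). MiR-142 was thus counted in a form with 2 bases more at its 5′ end than its entry. From the third base on it reads cATAAAGTagaaagcactac, so that the extra bases change the seed. Those of miR-150 and miR-223 were 2 bases shorter at the 3′ end. Mir-150-p3 is named as a product of the 3′ arm of the miR-150 hairpin. None of the 8 names carries ss, a mark in other listed names that was read as bases substituted against the entry. The raw reads of all 8 were whole numbers in every library, and whether any of their reads was divided with another listed sequence was not tested.

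The listed sequences took 133894 reads of uninjected tissue, 56026 with *Lhx1-AS* and 108041 with *Fry-MO*, between 2.29% and 5.08% of the mappable reads. The early embryo miRNA miR-427, with the other products of its hairpin, held 82.1% of the *Xenopus*-named reads in the uninjected library, and this share was 61.8% for *Lhx1-AS* and 23.9% for *Fry-MO*. The 8 blood and endothelium sequences held 362, 344 and 4771 raw reads. This was 0.644%, 1.22% and 7.43% of the *Xenopus*-named reads, and 3.61%, 3.21% and 9.76% once the products of mir-427 were left out. In pooled tissue, a change in the number of cells that make a miRNA cannot be told apart from a change in its amount per cell. Levels below are the authors' normalized counts, which are raw reads divided by 1 size parameter per library (0.921 for uninjected, 0.773 for *Lhx1-AS* and 0.877 for *Fry-MO*).

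**Figure D1:**
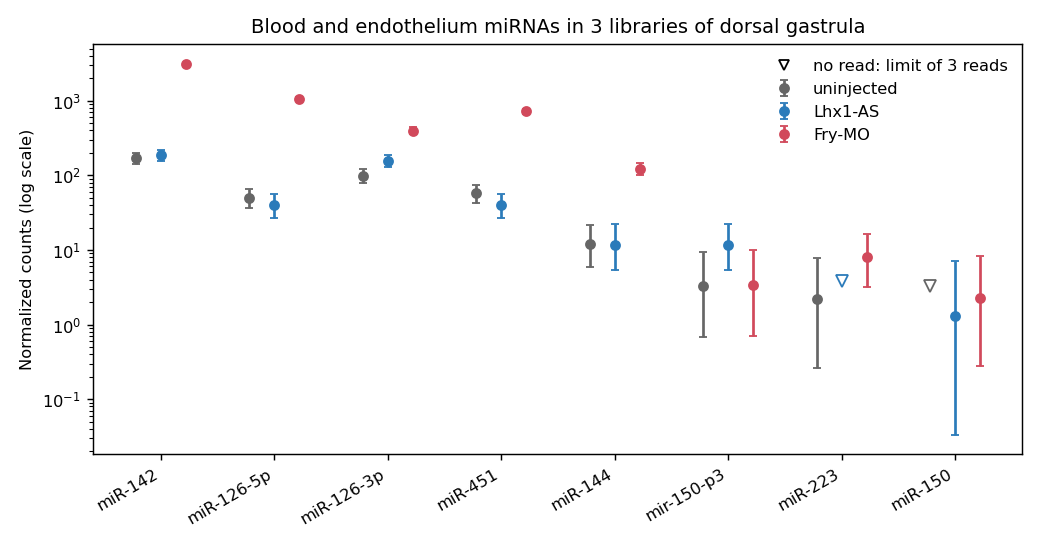
Normalized counts (log scale) of the 8 sequences in the uninjected (grey), *Lhx1-AS* (blue) and *Fry-MO* (red) library, with bars for the 95% counting interval and open triangles at 3 reads, the limit that a count of 0 allows, where a library had no read. The *Fry-MO* library stands above both others for miR-142, both arms of miR-126, miR-451 and miR-144, from 122.01 for miR-144 to 3133 for miR-142, while the last 3 sequences have at most 9 reads in any library.

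By the deposited normalization levels of the red cell pair with *Fry-MO* were 10.2-fold to 18.0-fold those of the other libraries, and when scaled to *Xenopus*-named reads without mir-427 they were 1.998-fold to 4.47-fold. MiR-451 had 53 raw reads in the uninjected library, 31 with *Lhx1-AS* and 632 with *Fry-MO*, or 57.6 (43.1 to 75.3), 40.1 (27.2 to 56.9) and 720.6 (665.5 to 779.1) normalized counts. MiR-144, its neighbour, had 11, 9 and 107 raw reads, or 11.9 (5.96 to 21.4), 11.6 (5.32 to 22.1) and 122.01 (99.99 to 147.4) normalized counts. For both, the intervals of the uninjected and the *Lhx1-AS* library overlapped, and that of the *Fry-MO* library lay apart from them. The *Fry-MO* level was 10.2-fold that of the uninjected library for miR-144 (5.48 to 21.1). It was 18.0-fold that of the *Lhx1-AS* library for miR-451 (12.5 to 26.7) and 10.5-fold for miR-144 (5.32 to 23.6). By number of reads miR-451 was 36th among the *Xenopus*-named sequences in the uninjected library, 49th with *Lhx1-AS* and 19th with *Fry-MO*.

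The ratio of miR-144 to miR-451, which does not depend on how the libraries are scaled to each other, had counting intervals that overlapped between all libraries for the *Xenopus*-named sequences. It was 0.208 (0.0978 to 0.402) in the uninjected library, 0.290 (0.122 to 0.625) in the *Lhx1-AS* and 0.169 (0.137 to 0.208) in the *Fry-MO* library. Each library thus held more reads of miR-451 than of miR-144. The ratio with *Fry-MO* was 0.816 times that of uninjected tissue, with an interval of 0.405 to 1.79 that allows a difference of more than 2-fold downward and of less than 2-fold upward. Against the *Lhx1-AS* library it was 0.583 times (0.262 to 1.43). This turns when the sequences of every species are summed, which adds the 5p arm of miR-144 described further on. The ratio of both arms of miR-144 to miR-451 was then 0.491 (0.294 to 0.799), 0.790 (0.446 to 1.39) and 0.206 (0.170 to 0.2497), and with *Fry-MO* it was 0.421 times that of uninjected tissue (0.247 to 0.727) and 0.261 times that of *Lhx1-AS* tissue (0.146 to 0.491).

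Of the other blood miRNAs, miR-142 was the most read of all 8 sequences in every library. It had 156 raw reads in uninjected tissue, 143 with *Lhx1-AS* and 2748 with *Fry-MO*, or 169.5 (143.9 to 198.2), 184.9 (155.8 to 217.8) and 3133 (3017 to 3253) normalized counts. It was the 16th most read *Xenopus*-named sequence in uninjected tissue, the 21st with *Lhx1-AS* and the 7th with *Fry-MO*. The ratio of the *Fry-MO* to the *Lhx1-AS* library was 16.9 (14.3 to 20.2). MiR-223, of neutrophils and macrophages, had 2, 0 and 7 raw reads, and miR-150, of lymphocytes, 0, 1 and 2. For both, the counting intervals overlapped between all libraries. A count of 0 allows up to 3 reads (a one-sided limit), or 3.26 normalized counts in the uninjected and 3.88 in the *Lhx1-AS* library. The level of miR-223 with *Fry-MO*, 7.98 (3.21 to 16.4), lay above the limit in the *Lhx1-AS* library, but its interval reached below it. Mir-150-p3 had 3, 9 and 3 reads, with intervals that overlapped between all libraries. These 3 sequences were below 10 reads in every library and were not compared.

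The arms of miR-126 differed in how far apart the libraries stood. MiR-126-5p had 46 raw reads in the uninjected library, 31 with *Lhx1-AS* and 922 with *Fry-MO*, or 49.97 (36.6 to 66.6), 40.1 (27.2 to 56.9) and 1051 (984.5 to 1121) normalized counts. MiR-126-3p had 91, 120 and 350 raw reads, or 98.8 (79.6 to 121.4), 155.1 (128.6 to 185.5) and 399.1 (358.4 to 443.2) normalized counts. The 3p arm was thus the more read in uninjected and *Lhx1-AS* tissue, and the 5p arm with *Fry-MO*. The 5p arm took 33.6% of the reads of both arms in the uninjected library (25.7% to 42.1%), 20.5% (14.4% to 27.9%) with *Lhx1-AS*, but 72.5% (69.9% to 74.9%) with *Fry-MO*. These shares do not depend on the scaling between libraries. The ratio of 5p to 3p reads with *Fry-MO* was 5.21-fold that of uninjected tissue (3.53 to 7.76) and 10.2-fold that of the *Lhx1-AS* library (6.67 to 15.9). With *Lhx1-AS* it was 0.511 times that of uninjected tissue (0.289 to 0.898).

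The arms also differed when set against miR-142 in the same library. MiR-126-5p had 0.295 reads per read of miR-142 in uninjected tissue (0.207 to 0.412), 0.217 (0.142 to 0.321) with *Lhx1-AS*, but 0.336 (0.311 to 0.362) with *Fry-MO*. The proportion with *Fry-MO* was 1.14-fold that of uninjected tissue (0.807 to 1.63) and 1.55-fold that of the *Lhx1-AS* library (1.04 to 2.38). MiR-126-3p had 0.583 reads per read of miR-142 in uninjected tissue (0.445 to 0.760), 0.839 (0.653 to 1.08) with *Lhx1-AS*, but 0.127 (0.114 to 0.142) with *Fry-MO*. Its proportion with *Fry-MO* was 0.218 times that of uninjected tissue (0.164 to 0.293). MiR-451 had 0.340 reads per read of miR-142 in uninjected tissue (0.244 to 0.467), 0.217 (0.142 to 0.321) in the *Lhx1-AS* and 0.230 (0.211 to 0.251) in the *Fry-MO* library. The change of this last proportion from uninjected to *Fry-MO* tissue was 0.677-fold (0.486 to 0.954).

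**Figure D2:**
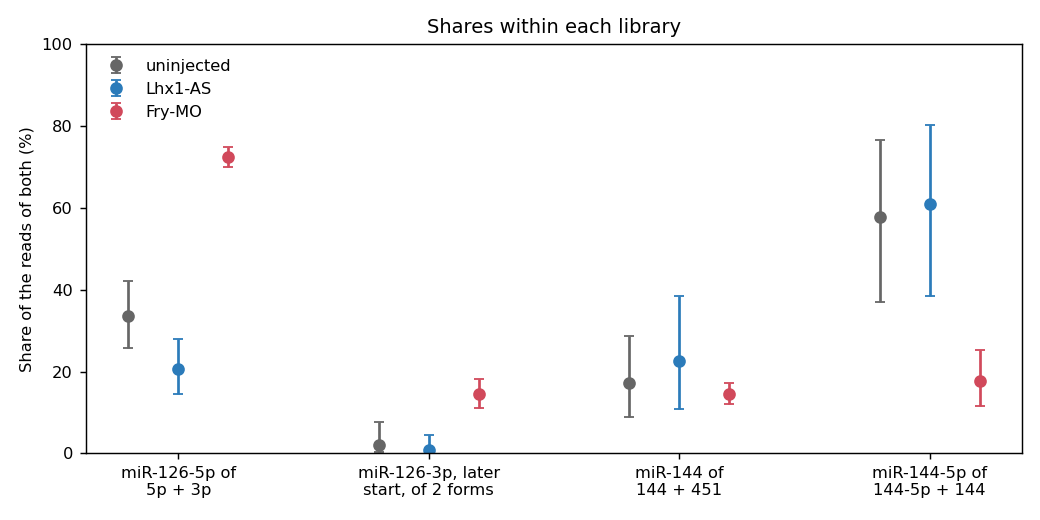
Share (%) of the first of a pair among the reads of both, in the uninjected (grey), *Lhx1-AS* (blue) and *Fry-MO* (red) library, with 95% counting intervals. The 5p share of miR-126 is 72.5% with *Fry-MO* against 33.6% and 20.5% in the others, the share of miR-144 in the reads of miR-144 and miR-451 overlaps in all libraries, and the share of miR-144-5p is lowest with *Fry-MO*.

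With 10 or more reads in 1 of the 2 libraries, 5 of the 8 sequences could be compared, and a ratio of 2 or more was called higher and one of 0.5 or less lower. Between *Fry-MO* and uninjected tissue all 5 were at least 2-fold higher, with ratios of 21.0 (15.6 to 28.9) for miR-126-5p, 18.5 (15.7 to 21.9) for miR-142 and 12.5 (9.45 to 16.9) for miR-451 above those of miR-144 and miR-126-3p. Of the 93 *Xenopus*-named sequences compared 68.8% were called higher and 9.68% lower, so that the count of 5 does not by itself set them apart. The counting interval lay above 1 for all 5, and above 1 for 68.8% and below 1 for 12.9% of the 93. In order of ratio miR-126-5p was 7th of the 93, miR-142 12th, miR-451 22nd, miR-144 25th and miR-126-3p 47th. MiR-126-3p, at 4.04 (3.20 to 5.14), was itself the middle sequence of the 93. Relative to this median, miR-126-5p was 5.21-fold, miR-142 4.58-fold, miR-451 3.10-fold and miR-144 2.53-fold. As the median is miR-126-3p itself, the value for miR-126-5p is the same quantity as the change of the 5p to 3p ratio given above. The median log2 ratio of the 5, with a pseudocount of 1 normalized count, was 3.62, against 2.02 over the 93. Here and below the 5 are not all separate, as both arms of miR-126 come from 1 hairpin and miR-144 and miR-451 from 1 cluster.

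Between *Lhx1-AS* and uninjected tissue none of the 5 was called, while 32.9% of the 79 *Xenopus*-named sequences compared were called higher and 6.33% lower. For miR-126-3p, at 1.57 (1.19 to 2.08), the counting interval lay above 1, as it did for 43.0% of the 79, with 13.9% below 1. The intervals of the other 4 held 1, from miR-451 at 0.696 (0.432 to 1.10) and miR-126-5p at 0.802 (0.492 to 1.29) to miR-144 at 0.974 (0.357 to 2.58) and miR-142 at 1.09 (0.863 to 1.38). These intervals do not show equal levels, and that of miR-144 allows a change of more than 2-fold either way. Relative to the median ratio of the 79, which was 1.28, miR-451 was at 0.546, miR-126-5p at 0.629, miR-144 at 0.764, miR-142 at 0.856 and miR-126-3p at 1.23. The median log2 ratio was -0.04 for the 5 and 0.33 for the 79.

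The *Fry-MO* and *Lhx1-AS* libraries were also compared with each other, since both comparisons above share the uninjected library. With *Fry-MO* all 5 sequences were called higher, where 55.2% of the 96 *Xenopus*-named sequences compared were higher and 9.38% lower. Counting intervals lay above 1 for all 5, and above 1 for 59.4% and below 1 for 12.5% of the 96. MiR-126-5p had a ratio of 26.2 (18.4 to 38.8) and was 3rd of the 96, and miR-126-3p one of 2.57 (2.08 to 3.19), near the median of 2.60. MiR-451 was 7th, miR-142 9th and miR-144 14th, the last having passed the read minimum only through the *Fry-MO* library. Relative to the median, miR-126-5p was 10.1-fold, miR-451 6.92-fold, miR-142 6.52-fold and miR-144 4.04-fold, and miR-126-3p 0.990-fold.

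**Figure D3:**
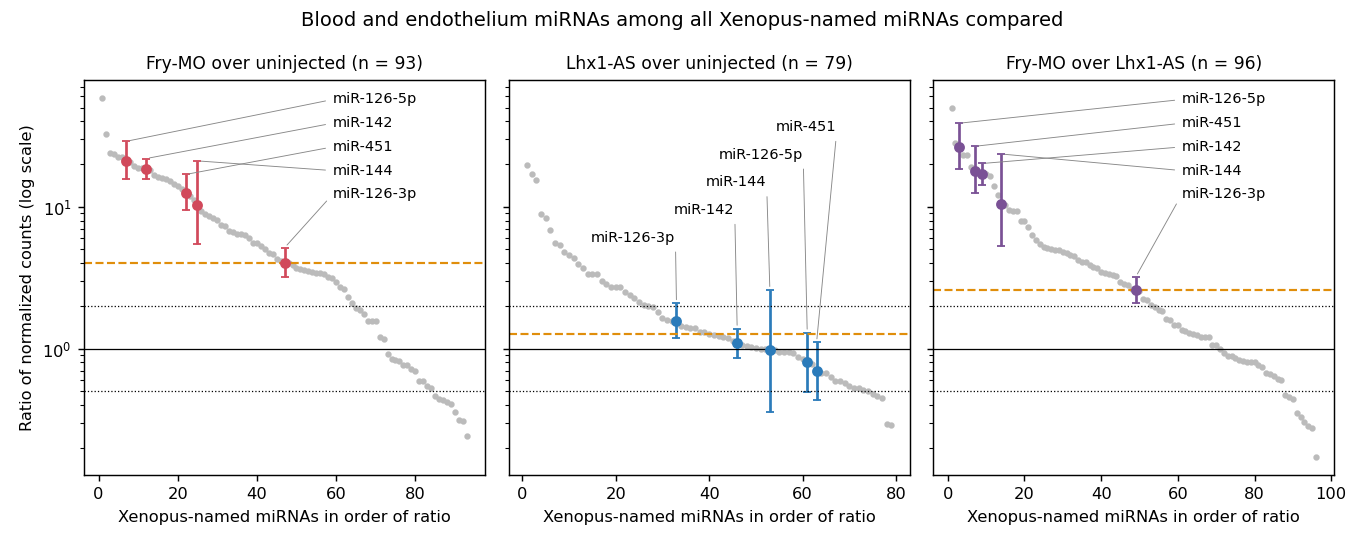
Ratios of normalized counts (log scale) of all *Xenopus*-named sequences with enough reads, in falling order, for *Fry-MO* over uninjected (93 sequences), *Lhx1-AS* over uninjected (79) and *Fry-MO* over *Lhx1-AS* (96), with the 5 blood and endothelium sequences in colour with 95% counting intervals. The solid line is a ratio of 1, the dotted lines the limits of a call and the dashed line the median of all, on which miR-126-3p lies in the first panel at 4.04.

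The level of these ratios depends on the scaling between libraries, while their position relative to the median does not. Scaled to the listed reads, 2 of the 5 were called higher with *Lhx1-AS*, miR-126-3p at 3.15 and miR-142 at 2.19, and the count over the 79 went from 26 higher and 5 lower to 50 higher and none lower. Scaled to the *Xenopus*-named reads without the products of mir-427, the *Fry-MO* ratios were 4.12 for miR-126-5p, 3.62 for miR-142, 2.45 for miR-451 and 1.998 for miR-144, and that of miR-126-3p turned below 1, at 0.790, so that 3 of the 5 stayed above the limit of a call. On the same scale the ratios of *Fry-MO* to *Lhx1-AS* tissue were 6.53 for miR-126-5p, 4.47 for miR-451, 4.22 for miR-142, 2.61 for miR-144 and 0.640 for miR-126-3p, and scaled to the listed reads they were 15.4, 10.6, 9.97, 6.17 and 1.51 in that order. Without mir-427, 24 of the 93 sequences were higher and 31 lower with *Fry-MO* against uninjected tissue, in place of 64 and 9.

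**Figure D4:**
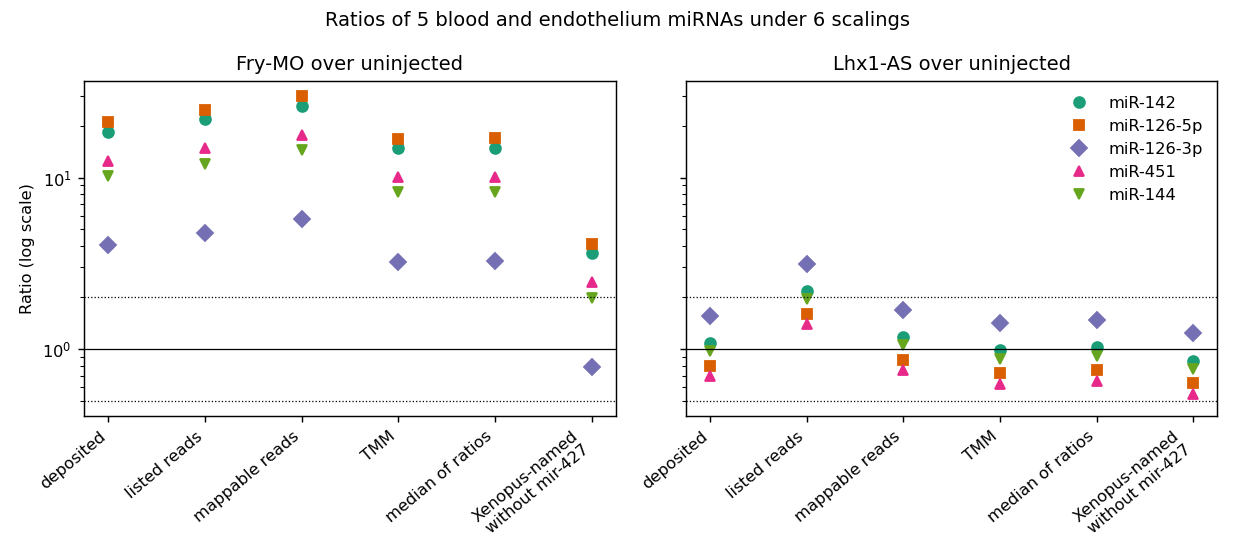
Ratios (log scale) of 5 sequences, *Fry-MO* over uninjected on the left and *Lhx1-AS* over uninjected on the right, under the deposited normalization and 5 other scalings, with a solid line at 1 and dotted lines at 2 and 0.5. In the left panel only miR-126-3p falls below 1, at 0.790 when scaled to *Xenopus*-named reads without mir-427. A scaling shifts all 5 ratios of a panel by the same factor, so their order cannot change, and miR-126-3p is highest in the right panel.

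The same miRNAs were also listed under the names of other species. A name gives the listed sequence that a read matched and not the animal the read came from. There were 18 such sequences, 14 of them with at least 1 read, and together they held 23.25 raw reads in the uninjected library, 24.5 with *Lhx1-AS* and 200.6 with *Fry-MO*. Of these, 5 had at least 10 reads in a library. All but miR-144-5p reached 10 reads only with *Fry-MO*, where they are high, so that the read minimum itself favours a high ratio, and their ratios are given as a description. A form of miR-126-3p named after the platypus, which starts 1 base later than the sequence shown above and so has its seed shifted by 1 base, had 2, 1 and 59 reads. It took 2.15% of the reads of both forms in the uninjected library (0.262% to 7.55%), 0.826% (0.0209% to 4.52%) with *Lhx1-AS*, but 14.4% (11.2% to 18.2%) with *Fry-MO*. The 5p share of miR-126 with the sequences of every species was 68.9% with *Fry-MO*, 33.1% in uninjected and 20.3% in *Lhx1-AS* tissue.

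Longer forms of miR-150 held most of its reads. A form named after the anole lizard, which contains all 20 bases of the *Xenopus*-named one, had 1, 2 and 42 reads, and one named after cattle 0, 0 and 9. Summed with the *Xenopus*-named form, a choice made after the values were seen, miR-150 had 1, 3 and 53 reads, and so also entered only through the *Fry-MO* library, with a ratio of *Fry-MO* to uninjected tissue of 55.6 (9.56 to 2238). The ratio to the *Lhx1-AS* library was 15.6 (5.05 to 78.0). For miR-223 a sequence of the 5p arm named after the opossum, 29 bases long, had 2, 1 and 25 reads, a ratio to uninjected tissue of 13.1 (3.27 to 114.3). MiR-142-3p, named after the zebra finch, had 1, 1 and 28 reads, or 0.637%, 0.694% and 1.01% of the reads of both miR-142 arms, with intervals that overlapped between all libraries.

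MiR-144-5p, named after the olive flounder, stood apart from miR-144. It had 15, 14 and 23 raw reads, and its ratio of *Fry-MO* to uninjected tissue was 1.61 (0.804 to 3.32), against 10.2 for miR-144. It held 57.7% of the reads of both arms in uninjected tissue (36.9% to 76.6%), 60.9% (38.5% to 80.3%) with *Lhx1-AS*, but 17.7% (11.6% to 25.4%) with *Fry-MO*. The ratio of miR-144-5p to miR-144 with *Fry-MO* was 0.158 times that of uninjected tissue (0.0580 to 0.427). In miR-126 and miR-144 alike, the arm balance in the *Fry-MO* library thus lay outside the counting intervals of both other libraries, toward the 5p arm in the first and away from it in the second.

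Other miRNAs known from blood or vessel cells besides other tissues were listed for comparison, from miR-130, miR-146, miR-155, miR-181, miR-221, miR-222 and miR-486. Of 14 *Xenopus*-named sequences 9 could be compared between *Fry-MO* and uninjected tissue. Of these, 5 were called higher and 1 lower, next to 68.8% higher and 9.68% lower among all compared. Of the 5 higher, miR-221 with 7 and 37 reads and miR-222 with 9 and 18 passed the read minimum only through the *Fry-MO* library. MiR-181a-5p, which acts in lymphocyte development, had 361.5, 286.5 and 5492.5 raw reads, and miR-181b 39, 28.5 and 301. MiR-130a, known from blood precursors and vessels, had 19, 15 and 327 reads and ratios of 18.1 (11.4 to 30.4) with *Fry-MO* and 0.940 (0.444 to 1.95) with *Lhx1-AS*. The other *Xenopus*-named sequences numbered miR-130 were not called with *Fry-MO*. The ratio to uninjected tissue was 1.56 (1.09 to 2.24) for miR-130b and 1.198 (0.874 to 1.64) for mir-130b-p5. MiR-130c, with 9 reads in uninjected tissue and 5 with *Fry-MO*, was not compared. MiR-146b, of a family that damps innate immune signals, was the lower one, with 340.5, 133.5 and 101.5 reads. Others of the same name did not follow it. MiR-146a was not called with *Fry-MO*, at 1.86 (0.653 to 5.82). MiR-146c, named after the zebra finch, had 28, 69 and 503 reads, with ratios of 18.9 (12.9 to 28.7) for *Fry-MO* and 2.93 (1.87 to 4.73) for *Lhx1-AS*. Its full name carries R+2 and 2ss18GA21TC, read as 2 bases more at the 3′ end and 2 substituted bases. Between *Lhx1-AS* and uninjected tissue 3 of 9 were higher and 1 lower, next to 32.9% higher and 6.33% lower among all compared. The 3 were miR-221 with 7 and 16 reads, miR-222 with 9 and 16 and miR-181a-2-3p with 6 and 15, named after their values were seen. All 3 passed the read minimum only through the *Lhx1-AS* library, where they are high. Their ratios were 2.72 (1.06 to 7.82), 2.12 (0.880 to 5.43) and 2.98 (1.09 to 9.36) in that order. MiR-486-5p, a red cell and muscle miRNA listed only under mouse names, had 201, 166 and 3116 reads. Its ratio was 16.3 (14.1 to 18.9) with *Fry-MO* and 0.983 (0.795 to 1.21) with *Lhx1-AS*, near those of miR-142. With sequences of every species, 14 of 19 on this list were higher with *Fry-MO* and 1 lower. The share over all listed sequences was not computed, so this count does not set the list apart.

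Reads of muscle miRNAs were few. *Xenopus*-named miRNAs of muscle were sought among miR-1, miR-133, miR-206, miR-208 and miR-499, and only 3 sequences of miR-133 were listed. They had 1, 1 and 10 raw reads in all, so that the muscle list was near 0 and no sequence of it was compared. The ratio of its sums with *Fry-MO* to uninjected tissue was 10.5 (1.49 to 455.6). With sequences of every species the list had 3, 3 and 11 reads, and this ratio was 3.85 (1.02 to 21.5). The early embryo list of miR-427, miR-428 and miR-302 was lower in sum in both injected libraries, with 50207 normalized counts in uninjected tissue, 22602 for *Lhx1-AS* and 17527 for *Fry-MO*. The ratio of the sums was 0.349 (0.343 to 0.356) with *Fry-MO*, and of 5 sequences compared 3 were lower and none higher, next to 9.68% lower and 68.8% higher among all compared. The 3 were all products of the mir-427 hairpin, which held 46163 of the 46222 raw reads of the list in uninjected tissue. MiR-428, at 0.914 (0.525 to 1.58), and mir-302-p5, at 0.525 (0.239 to 1.09), were not called with *Fry-MO*. MiR-428 went against the sum with *Lhx1-AS*, at a ratio of 3.34 (2.19 to 5.21). The part of these shifts in the levels of the blood and endothelium miRNAs was not tested.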

How the data were processed

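Small RNA libraries were sequenced in reads of 40 bases (SCS 2.8, RTA 1.8.70). Inserts of 15 to 32 bases were mapped by the authors with ACGT101-miR 4.2 to miRBase and chordate genomes (release and builds not given in the sources used here). They deposited raw reads per sequence, which are estimated counts (a read that fits several sequences is divided, and 488 sequences have values that are not whole), and a normalized signal, the raw value over a library size parameter, with 0 written as 0.001. Of an index of 1987 sequences, 2 lines were not analysed here.

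Intervals of single counts are Poisson, and those of ratios and shares Clopper-Pearson, at 95%. Intervals for changes of a ratio between libraries are from the conditional odds ratio. They are exact only where raw reads are whole, as in all 8 members. Reads carry no molecular identifiers, so the intervals cover counting error only. Sequences with at least 10 reads in 1 of 2 libraries were compared, and those at a ratio of 2 or more, or of 0.5 or less, were called. In a ratio, 0 reads were replaced by 3. All 8 members were named, and from each list or other species up to 4 or 12 sequences with at least 10 reads, most read first. Members and lists were chosen with earlier results of these data known. The calculation was tested on simulated libraries with counting error only, as the intervals assume, so that test does not bear on spread between libraries. Alternatives were other scalings, read minimums, folds, pseudocounts and all species. Summing overlapping forms (at least 12 shared bases) and counting calls without mir-427 were chosen after seeing the data. EdgeR 4.0.16 and DESeq2 1.42.0 (R 4.3.3) gave scaling factors only, and no test was run. Other steps ran in Python 3.11.15 (scipy 1.17.1, numpy 2.4.6, pandas 2.3.3, matplotlib 3.10.9).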

Additional observations from a re-analysis of the deposited data

How the results depend on the processing

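The counts of 5 sequences higher with *Fry-MO* against uninjected tissue were the same or within 1.5 times under the scalings to listed and mappable reads, edgeR's TMM, DESeq2's median of ratios, a minimum of 50 reads, folds of 1.5 and 4 and an interval that excludes 1. Of all 93 *Xenopus*-named sequences compared, 67 were then higher and 6 lower by listed reads, and 70 and 3 by mappable reads. By TMM and by the median of ratios it was 62 and 13 each. The interval lay above 1 for 68.8% and below 1 for 12.9%. For the minimum of 50 reads and the folds of 1.5 and 4 the share over all was not computed. Scaled to *Xenopus*-named reads without mir-427, a count chosen after seeing the data, it was 3 against uninjected and 4 against *Lhx1-AS* tissue. Against *Lhx1-AS* tissue the count went to 6 higher and 1 lower without a filter on reads. The sequences added were below 10 reads, miR-223 with 0 reads with *Lhx1-AS* and 7 with *Fry-MO*, and mir-150-p3 with 9 and 3. The share over all *Xenopus*-named sequences was not computed without a filter. The count of 0 between *Lhx1-AS* and uninjected tissue became 2 when scaled to the listed reads, where 50 of all 79 compared were higher and 0 lower. It was 1 without a filter, from mir-150-p3 with 3 reads in uninjected tissue and 9 with *Lhx1-AS*. It was also 1 at a fold of 1.5, and 1 with an interval that excludes 1, which lay above 1 for 43.0% of the 79 and below 1 for 13.9%. On that scale, without mir-427, miR-126-3p turned to 0.790 against uninjected and 0.640 against *Lhx1-AS* tissue. With sequences of every species the 5p share of miR-126 with *Fry-MO* was 68.9%, and the ratio of miR-144, then both arms together, to miR-451 was 0.491 in uninjected, 0.790 in *Lhx1-AS* and 0.206 in *Fry-MO* tissue, as the 5p arm of miR-144 enters, so that the intervals of its change with *Fry-MO* exclude 1. Over all *Xenopus*-named sequences the split of 26 higher and 5 lower with *Lhx1-AS* became 24 and 10 with TMM, 24 and 9 with the median of ratios and 21 and 14 when scaled to *Xenopus*-named reads without mir-427, and the split of 53 and 9 between *Fry-MO* and *Lhx1-AS* became 41 and 21 when scaled to the listed reads and 18 and 43 without mir-427. A pseudocount of 10 or 0.1 left the medians at 3.43 and 3.64 with *Fry-MO* and at -0.02 and -0.04 with *Lhx1-AS*. No paired analysis was possible because each condition has 1 library. Depth limits miR-144, miR-150 and miR-223, with at most 11 reads outside the *Fry-MO* library.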

Other observations

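MiRNAs of other tissues were listed too. The *Xenopus*-named miRNAs of kidney and gut epithelia (miR-192, miR-194, miR-204 and miR-215) had 42.5 raw reads in uninjected tissue, 39 with *Lhx1-AS* and 248 with *Fry-MO*, and most were from miR-204, a miRNA of kidney, eye and brain, with 35.5, 25 and 226 reads. Both members with enough reads, miR-204 and miR-192, were called higher with *Fry-MO*, next to 68.8% of all *Xenopus*-named sequences compared. Their ratios were 6.68 (4.68 to 9.81) and 3.99 (1.44 to 13.7). MiR-192, with 5 reads in uninjected tissue and 19 with *Fry-MO*, passed the read minimum only through the library where it is high. A form of it named after the dog was more read, with 9, 11 and 108 reads and a ratio of 12.6 (6.40 to 28.3) for *Fry-MO*. One named after cattle had 0, 1 and 34 reads. Against uninjected tissue both forms also passed the minimum only through the *Fry-MO* library. The sum of the *Xenopus*-named list had a ratio of 6.13 (4.41 to 8.69). MiR-122, the miRNA of liver cells, had 12, 23 and 20 reads with ratios of 2.28 (1.09 to 5.03) for *Lhx1-AS* and 1.75 (0.815 to 3.93) for *Fry-MO*. The neural list (miR-9, miR-124 and miR-128) had 46.7, 29.2 and 66 reads, with miR-128 at 31, 16.5 and 24. Of 3 compared, 2 were higher with *Fry-MO*, close to the share of 68.8% among all. These were mir-124-p3, with 8 reads in uninjected tissue and 26 with *Fry-MO*, and miR-9a-5p, with 3.33 and 12.3. Both passed the read minimum only through the *Fry-MO* library. The list of skin and endocrine miRNAs (miR-203, miR-205 and miR-375) had 14, 6 and 13 reads.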
